A study of Mus musculus with 9 samples.

Results

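The spliceosomal genes described here are the core proteins of the small nuclear ribonucleoproteins (symbols starting with Snrp), the SR proteins (Srsf followed by a number), the subunits of splicing factors SF3a and SF3b (Sf3a and Sf3b) and the Sm-like proteins (Lsm followed by a number). They were chosen by symbol from the authors' deposited table of resection against sham, and a gene was kept if the deposited expression matrix lists it. That gave 42 of 43 matching symbols, out of 14479 listed genes: 12 snRNP proteins, 10 SR proteins, 8 SF3 subunits and 12 Sm-like proteins. All 42 are called spliceosomal genes for short, although some Sm-like proteins, such as Lsm1, Lsm10, Lsm11 and Lsm14a, act in other particles. The matrix holds genes above 1 FPKM in at least 1 library, so the rule itself reads a gene's symbol and its highest value; the families were proposed with earlier results of these data known. The member nearest to that limit was Lsm7, whose highest library had 6.71 FPKM. The symbol left out was Srsf12, for which the authors' deposited tables give 0.0723 FPKM for resection with vagotomy, 0.0931 FPKM for resection and 0.276 FPKM for sham.

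RNA was sequenced from the lower part of the ventricular apex of neonatal CD-1 mice, in 3 libraries after apical resection with left vagotomy, 3 after apical resection alone and 3 after sham surgery. Apical resection cuts away the tip of the ventricle, and vagotomy severs the vagus nerve, which carries the parasympathetic supply of the heart. All pups were operated on at postnatal day 1, and all hearts were taken at postnatal day 2, so every group had surgery and the same recovery time. The labels name no vagotomy without resection, and they do not say whether the libraries came from separate pups or litters, so p-values measure only the spread between these samples.

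Splicing removes introns in a particle built from small nuclear RNAs and their proteins. A ring of Sm proteins is loaded onto most spliceosomal small nuclear RNAs, a ring of Sm-like proteins sits on U6, and SF3a and SF3b hold the U2 particle at the branch point of the intron. SR proteins bind exons, recruit these particles and bias the choice of splice site, and in the heart they act beside muscle regulators such as Rbm20 on transcripts of sarcomere and calcium-handling genes.

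Values are FPKM, a level per transcript length and library size, so levels can be compared between genes, but read depth is not known. Median expression of all listed genes lay between 7.52 and 8.29 FPKM per library. The mitochondrial tRNA gene mt-Ta was the top gene everywhere and held 6.48% to 9.53% of summed FPKM after resection with vagotomy, 15.6% to 40.8% after resection and 18.4% to 37.6% after sham surgery. Vagotomy replicate 3 listed 740 genes at 0, against 203 to 311 in the other libraries. All 9 cardiomyocyte markers were listed, but Myh6 and Actc1 stood at 0 in the 3 vagotomy libraries. The authors' deposited table flags both with the Cuffdiff status HIDATA, so these 0 values were not read as levels. The other 7 summed to 18224 to 41129 FPKM after resection with vagotomy, 9256 to 13585 FPKM after resection and 12713 to 14627 FPKM after sham surgery. The vagotomy sums were above all others, but of the 7 genes only Myl3 had every vagotomy library above the rest. Myl3 averaged 7663, 898 and 1211 FPKM in that order of groups, and Myl2 averaged 3772, 3904 and 6184 FPKM. Tnnt2 reached 18822 FPKM in vagotomy replicate 3, while Ryr2 and Pln overlapped between groups. Summed levels of the 8 listed macrophage markers were 166 to 209 FPKM after resection with vagotomy, 149 to 255 FPKM after resection and 37.6 to 59.9 FPKM after sham surgery. The 5 listed neutrophil markers summed to 107 to 298 FPKM after resection with vagotomy. They summed to 193 to 279 FPKM after resection and 18.7 to 40.6 FPKM after sham surgery. Within that sum S100a8 averaged 42.8, 165 and 20.8 FPKM in that order of groups, and S100a9 averaged 140, 45.4 and 6.01 FPKM. Sums of the 7 listed erythroid markers were 362 to 655 FPKM after resection with vagotomy. They were 794 to 4352 FPKM after resection and 439 to 1354.5 FPKM after sham surgery. Hba-a2 went the other way, averaging 101 FPKM after resection with vagotomy and 40.1 FPKM after resection. Sums over 8 cell-cycle markers were 80.7 to 110 FPKM after resection with vagotomy, 104 to 121 FPKM after resection and 204 to 324 FPKM after sham surgery. The part of these differences in the results was not tested. In a bulk library, fewer cells of a type and less RNA per cell cannot be told apart.

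Resection with vagotomy against resection alone asks what loss of the left vagus adds to the injury. In it, 7 of the 42 genes rose and 0 fell: the Sm ring genes Snrpd3, Snrpg and Snrpf, the SR protein gene Srsf4, the Sm-like genes Lsm3 and Lsm7, and the SF3a subunit gene Sf3a1. Their changes ranged from 1.26 to 2.19 on the scale of log2(FPKM + 1), where the added 1 makes changes of weakly expressed genes look smaller. The call rule was a limma p-value below 0.05 after Benjamini-Hochberg adjustment over 13249 tested genes, and it called 1.97% of all of these higher and 1.55% lower, or 3.52% in all. The share of the spliceosomal genes called was 16.7%. These genes were more highly expressed, with a median level of 27.2 FPKM against 9.81 FPKM over all tested genes. With only genes averaging at least 5 FPKM, 7 of 39 were called, 6 higher and 1 lower, where 5.87% of all tested genes were called. At an unadjusted p below 0.05 limma gave 17 of the 42 in either direction, where it gave 24.2% of all tested genes. Without vagotomy replicate 1, 2 or 3 the count was 4, 3 and 4, where 0.981%, 1.25% and 0.513% of all tested genes were called. Without resection replicate 1, 2 or 3 it was 6, 3 and 5, against 4.46%, 0.317% and 2.57%. Without sham replicate 1, 2 or 3 it was 6, 3 and 3, against 2.36%, 0.702% and 0.543%. In a fit to only the 6 libraries compared it was 1, Snrpd3, against 0.219%. With the replicate number of the sample titles as a block, which the labels do not name as a batch, the count was 10. Snrpa1 was lower and Lsm6 and Sf3b3 were higher in addition, while the share of all tested genes called was 9.64%.

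The family did not move as a block. Changes ran from -1.88 to 2.19 over the 42 genes, with 24 positive, 18 negative and a median of 0.19, where the median of all tested genes was 0.02. The size of change, whatever its sign, had a median of 0.55 among the spliceosomal genes and of 0.41 among all tested genes. The 3 vagotomy libraries lay wholly above the 3 resection libraries for 12 genes and wholly below them for 6, while 14% of all tested genes separated upward and 12.2% downward, 26.2% in all. Each family held at least 1 gene that rose: 3 of 12 snRNP genes, 1 of 10 SR genes, 1 of 8 SF3 genes and 2 of 12 Sm-like genes.

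**Figure D1:**
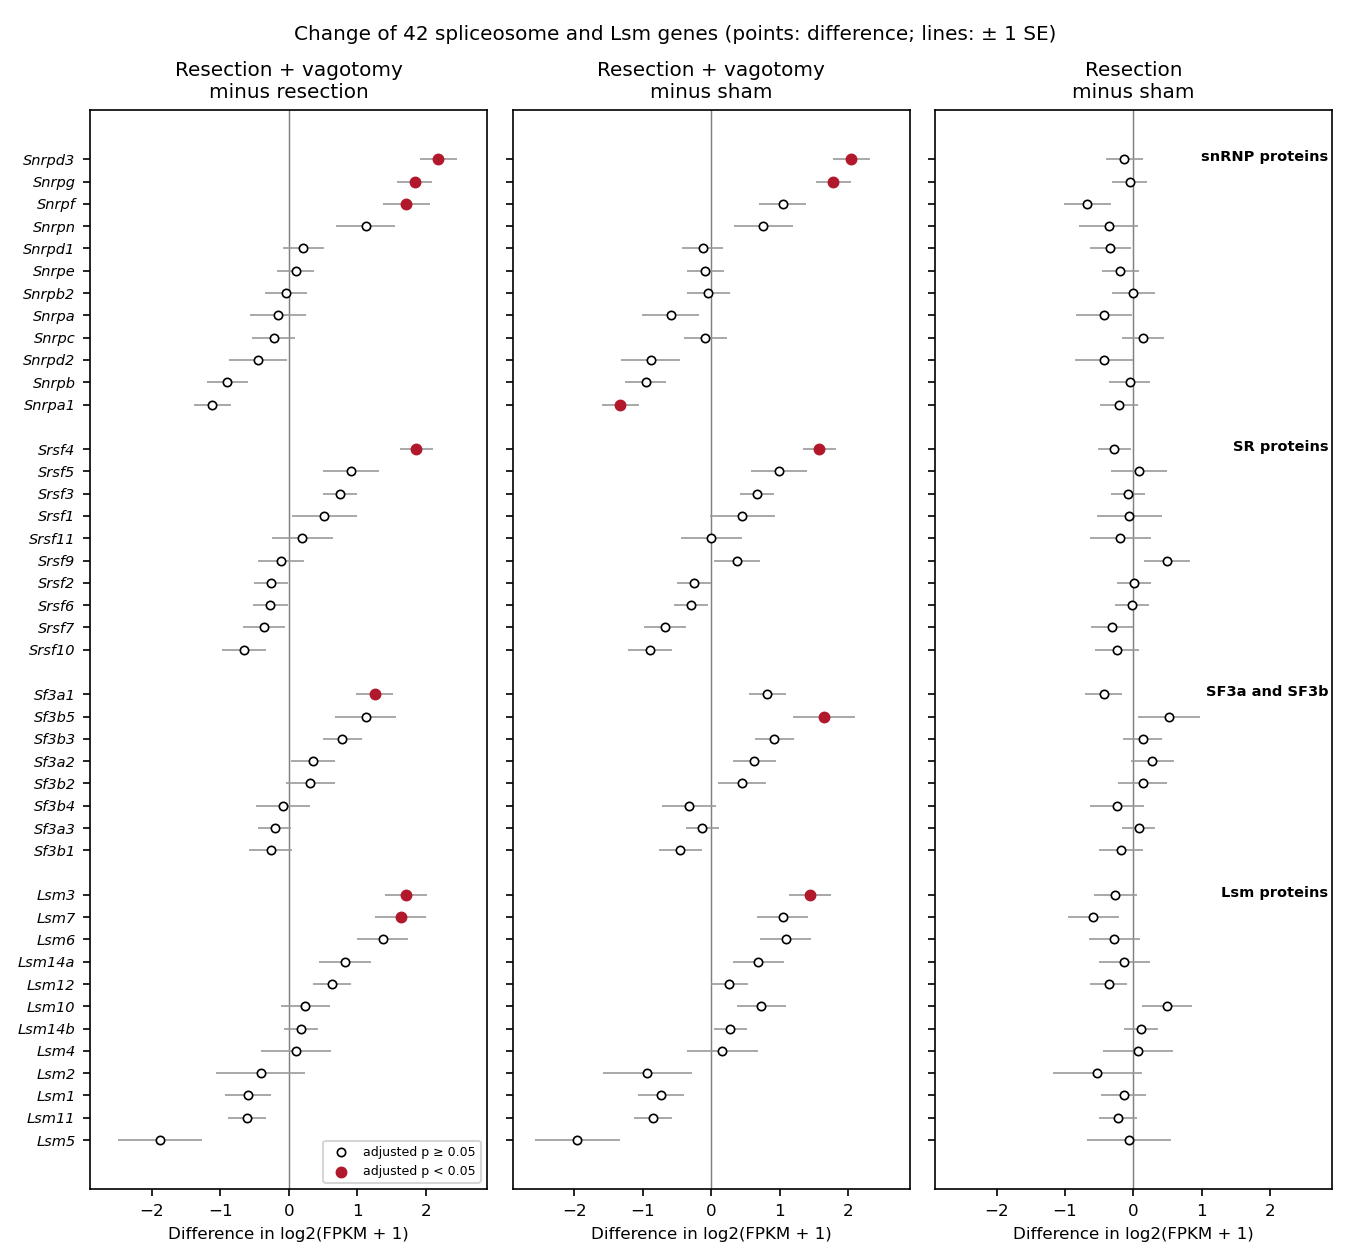
Difference in log2(FPKM + 1) for each of the 42 genes in 3 panels (resection with vagotomy minus resection, resection with vagotomy minus sham, resection minus sham); points are limma estimates, bars are 1 SE, and red points have an adjusted p below 0.05. The 2 panels with vagotomy spread from -1.95 to 2.19, while the panel of resection minus sham stays between -0.67 and 0.52 and has no red point.

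Resection with vagotomy against sham called 5 genes higher (Snrpd3, Snrpg, Srsf4, Lsm3 and Sf3b5) and 1 lower (Snrpa1), or 14.3% of the 42. The background was 10.1% of all tested genes, 5.81% higher and 4.26% lower, so the share of the spliceosomal genes stood closer to it than in the contrast with resection alone. The comparison shares its vagotomy libraries with the one above, so it is no second test of the same genes. The vagotomy libraries lay wholly above the sham libraries for 11 genes and wholly below them for 7, while 19.7% of all tested genes separated upward and 17% downward, 36.7% in all. Changes ran from -1.95 to 2.05, with a median of 0.22 against 0.03 over all tested genes. The count was 2 without sham replicate 2 and 2 without sham replicate 3, where 0.755% and 0.898% of all tested genes were called. With only genes averaging at least 5 FPKM it was 6 of 39, where 12.3% of all tested genes were called.

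Resection against sham called 0 of the 42 genes, against 0.294% of all tested genes, 0.287% higher and 0.00755% lower. At an unadjusted p below 0.05 limma also gave 0 of the 42 genes, where it gave 5.89% of all tested genes, and the authors' deposited table calls 0 of them, where it calls 6.15% of all genes it tested, 4.21% higher and 1.94% lower. Changes lay between -0.67 and 0.52, with a median of -0.14. The 3 resection libraries lay above the 3 sham libraries for Srsf9 alone and below them for Snrpf alone, while 6.36% of all tested genes separated upward and 4.45% downward, 10.8% in all. Srsf9, an SR protein that mainly acts on alternative splice sites, had 32.0, 27.8 and 29.9 FPKM after resection, against 20.0, 19.9 and 23.0 FPKM after sham surgery, a difference of 0.49 with a limma adjusted p of 1. A missing call with 3 libraries a group does not show that the levels were alike.

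In the Sm ring of 7 genes, Snrpd3, Snrpg and Snrpf rose and Snrpb, Snrpd1, Snrpd2 and Snrpe did not pass the test. Snrpd3, which encodes the ring protein SmD3 (chr10:75518042-75535440, GRCm38), had 62.6, 58.3 and 48.5 FPKM after resection with vagotomy, 15.2, 8.01 and 12.6 FPKM after resection, and 15.2, 11.3 and 12.3 FPKM after sham surgery. The lowest vagotomy library stood above every library of the other groups. Its mean was 56.5 ± 7.21 FPKM after resection with vagotomy and 11.9 ± 3.64 FPKM after resection (SD, n = 3 each), a log2 difference of 2.19 ± 0.27 (SE) with a limma adjusted p of 0.0057. Against the sham mean of 12.9 ± 2.01 FPKM the difference was 2.05 ± 0.27 (limma adjusted p = 0.00467), and both calls held in all 18 alternative settings. Snrpd3 overlaps exons of Gucd1 on the opposite strand, and whether strand was used in counting is not given in the sources used here.

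Snrpg, which encodes SmG (chr6:86371583-86378902), showed the same order. It had 86.6, 76.7 and 97.4 FPKM after resection with vagotomy, 29.4, 17.6 and 24.7 FPKM after resection, and 23.3, 22.5 and 27.5 FPKM after sham surgery. Vagotomy libraries were separated from all others by more than the whole range of those others. The difference was 1.84 ± 0.25 against resection (limma adjusted p = 0.00964) and 1.79 ± 0.25 against sham (limma adjusted p = 0.00599).

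Snrpf, which encodes SmF (chr10:93540632-93605245), had 27.3, 20.5 and 9.10 FPKM after resection with vagotomy, 5.38, 4.01 and 4.36 FPKM after resection, and 7.42, 7.71 and 8.50 FPKM after sham surgery. Vagotomy libraries were again all above the others, but vagotomy replicate 3 stood just above the sham libraries. The difference from resection was 1.72 ± 0.34 (limma adjusted p = 0.0337). Against sham it was 1.05 with a limma adjusted p of 0.076, and resection minus sham was -0.67 with an adjusted p of 0.996. The locus that Cuffdiff tested for Snrpf also covers Ccdc38 and 4933408J17Rik, which overlap it on the opposite strand. Transcripts of Ccdc38 match 66.1% of the Snrpf transcript at 100% identity, so the level of Snrpf is uncertain. The call against resection was lost when either of vagotomy replicates 1 and 2, resection replicates 2 and 3 or sham replicates 2 and 3 was left out, with adjusted p-values up to 0.127 over all settings tried.

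The remaining ring genes had other patterns. Snrpb, which encodes the SmB proteins, had 32.3, 33.1 and 37.2 FPKM after resection with vagotomy, 93.9, 48.9 and 58.4 FPKM after resection, and 88.8, 56.0 and 60.7 FPKM after sham surgery. All vagotomy libraries were below all others, yet the difference of -0.90 from resection had a limma adjusted p of 0.11, and that of -0.96 from sham had 0.0669. The authors' deposited table does call Snrpb lower after resection with vagotomy than after resection, at a q-value of 0.00425. Snrpe, the SmE gene, averaged 87.3 ± 5.9 FPKM after resection with vagotomy, 81.7 ± 11.6 FPKM after resection and 95.3 ± 29.0 FPKM after sham surgery, and these groups overlapped. Snrpd1 (SmD1) averaged 29.5 ± 10.2 FPKM after resection with vagotomy, 24.7 ± 5.37 FPKM after resection and 31.4 ± 5.80 FPKM after sham surgery, again with overlap. Snrpd2 (SmD2) averaged 30.1 ± 9.77 FPKM after resection with vagotomy, 45.1 ± 29.1 FPKM after resection and 55.6 ± 15.4 FPKM after sham surgery.

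The proteins of the ring are assembled in equal number, so the share of each gene in the ring's summed FPKM describes how even its transcripts were. Summed over the 7 genes, levels were 343 ± 9.97 FPKM after resection with vagotomy, 259 ± 74.8 FPKM after resection and 296 ± 32.8 FPKM after sham surgery. Snrpd3 held 16.4 ± 2.08% of the sum after resection with vagotomy, 4.62 ± 0.876% after resection and 4.36 ± 0.525% after sham surgery. Snrpg held 25.3 ± 2.65% after resection with vagotomy, 9.33 ± 1.42% after resection and 8.27 ± 0.645% after sham surgery. Snrpb held 9.96 ± 0.800% after resection with vagotomy, 25.6 ± 1.84% after resection and 23.1 ± 5.01% after sham surgery. The vagotomy libraries thus held the largest shares of Snrpd3 and Snrpg and the smallest of Snrpb. The highest gene of the ring exceeded the lowest by 4.22, 3.99 and 10.7 times after resection with vagotomy, by 17.8 ± 0.216 times after resection and by 12.6 ± 2.35 times after sham surgery. These shares rest on the same FPKM as the tests above and were not tested apart from them.

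**Figure D2:**
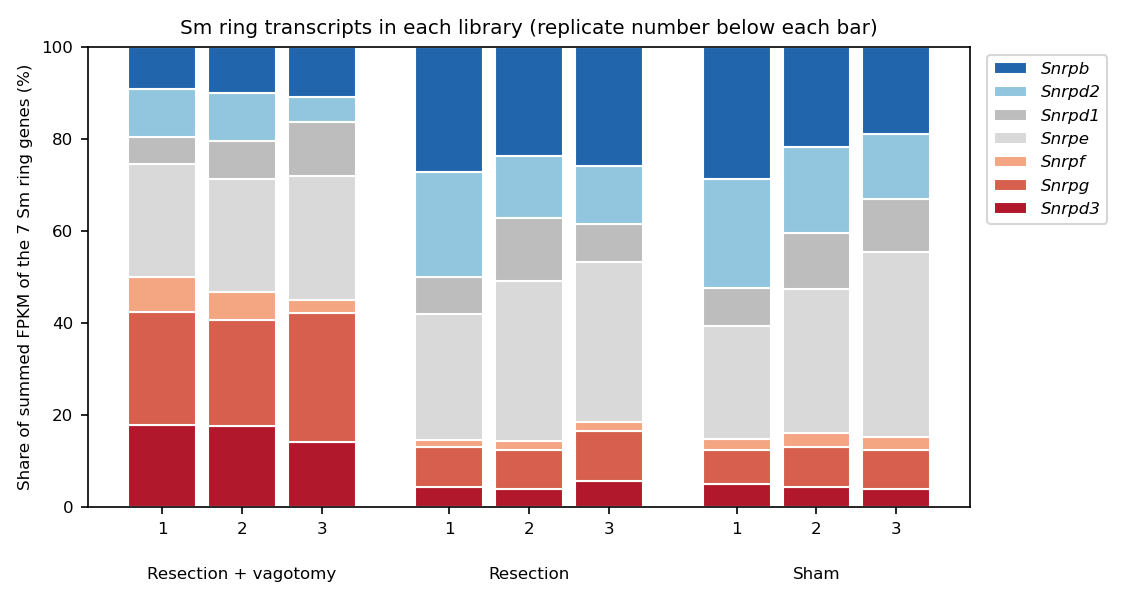
Share of each of the 7 Sm ring genes in their summed FPKM, in percent, as 1 stacked bar for each library, with the vagotomy libraries left, resection in the middle and sham right. Snrpd3 and Snrpg take 16.4% and 25.3% on average after resection with vagotomy, against 4.62% and 9.33% after resection.

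Of the snRNP proteins outside the ring, Snrpa1 fell relative to sham. It encodes a protein of the U2 particle (chr7:66060299-66074582). It had 9.18, 10.7 and 9.22 FPKM after resection with vagotomy, 33.3, 19.6 and 16.5 FPKM after resection, and 24.7, 25.5 and 27.2 FPKM after sham surgery. All vagotomy libraries were below all others, and the vagotomy mean was 0.376 of the sham mean. The difference from sham was -1.33 ± 0.27 (limma adjusted p = 0.019) and was lost without vagotomy replicate 1 or 3 or sham replicate 2 or 3, with adjusted p-values up to 0.089. Against resection it was -1.11 with a limma adjusted p of 0.0524, and the authors' deposited table calls it lower there. That difference passed in 6 alternative settings: with the replicate block (limma adjusted p = 0.0379), the filter at 5 FPKM, quantile or upper-quartile scaling, library weights, and without resection replicate 3. Snrpa, which encodes the A protein of the U1 particle, averaged 7.66 ± 3.24 FPKM after resection with vagotomy, 8.52 ± 3.54 FPKM after resection and 12.1 ± 5.97 FPKM after sham surgery.

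The paralogue Snrpn, an imprinted gene whose SmN protein can replace SmB in the ring, had 22.9, 33.9 and 80.8 FPKM after resection with vagotomy, 18.2, 11.9 and 25.7 FPKM after resection, and 21.5, 27.6 and 20.7 FPKM after sham surgery. Vagotomy replicate 3 was far above the rest and the groups overlapped. The difference from resection was 1.13 with a limma adjusted p of 0.149, whereas the authors' deposited table calls it at a q-value of 0.000995. Its locus is shared with Snurf, and in GENCODE its identifier belongs to Gm38393, a gene whose exons overlap those of Snrpn, Snurf, Snhg14 and 2 small nucleolar RNAs on the same strand, so what its value measures is uncertain. Snrpb2, which encodes a second RNA-binding protein of the U2 particle, averaged 7.68 ± 1.10 FPKM after resection with vagotomy, 8.23 ± 3.24 FPKM after resection and 8.16 ± 2.69 FPKM after sham surgery. For Snrpc, which encodes the C protein of the U1 particle, the means were 8.01 ± 1.46 FPKM after resection with vagotomy, 10.1 ± 5.13 FPKM after resection and 8.52 ± 1.32 FPKM after sham surgery.

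Among the 10 SR protein genes only Srsf4 passed the test. Srsf4, also known as SRp75 (chr4:131873617-131920029), had 20.5, 14.6 and 21.4 FPKM after resection with vagotomy, 4.51, 3.5 and 5.26 FPKM after resection, and 6.21, 5.61 and 4.87 FPKM after sham surgery. Every vagotomy library exceeded every other library. The difference was 1.86 ± 0.24 against resection (limma adjusted p = 0.00654) and 1.58 ± 0.24 against sham (limma adjusted p = 0.00853). The second call was lost without sham replicate 2 or 3, with adjusted p-values up to 0.0542. Its locus holds Gm12978 and Gm12992. Gm12992 carries a stretch of 100% identity to the Srsf4 transcript over 68.0% of that transcript's length and was listed at 5.19, 4.31 and 3.37 FPKM after resection with vagotomy, 2.71, 1.71 and 1.26 FPKM after resection, and 2.9, 2.1 and 2.25 FPKM after sham surgery. Reads could be split between the pair, so the level of Srsf4 is uncertain.

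Srsf3, a small SR protein that also acts in mRNA export, had 67.6, 68.0 and 95.7 FPKM after resection with vagotomy, 38.5, 52.0 and 45.1 FPKM after resection, and 42.7, 50.9 and 49.5 FPKM after sham surgery. The vagotomy libraries lay above all others, but the difference from resection of 0.75 had a limma adjusted p of 0.109. Srsf5, also called SRp40, had 134, 180 and 372 FPKM after resection with vagotomy, 74.0, 154 and 117 FPKM after resection, and 104, 128 and 84.3 FPKM after sham surgery. One library, vagotomy replicate 3, stood far above the rest, and the difference from resection of 0.91 had a limma adjusted p of 0.207. Srsf1, the founding SR protein ASF/SF2 and the most abundant of the 42 genes (mean of all 9 libraries, 173 FPKM), likewise had its highest value there. It had 169, 130 and 354 FPKM after resection with vagotomy, 73.7, 169 and 211 FPKM after resection, and 102, 170 and 173 FPKM after sham surgery. The groups overlapped (limma adjusted p = 0.541 against resection).

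The remaining SR genes did not pass the test in any contrast. Srsf10, which represses splicing when dephosphorylated, averaged 24.5 ± 3.81 FPKM after resection with vagotomy, 40.3 ± 15.1 FPKM after resection and 47.0 ± 12.9 FPKM after sham surgery. All of its vagotomy libraries were below all others (limma adjusted p = 0.241 against resection and 0.0953 against sham). Srsf7, or 9G8, averaged 24.2 ± 0.856 FPKM after resection with vagotomy, 31.9 ± 7.2 FPKM after resection and 41.3 ± 14.4 FPKM after sham surgery. Srsf2, or SC35, had 99.8, 80.7 and 71.4 FPKM after resection with vagotomy, 89.3, 109 and 102 FPKM after resection, and 81.1, 110 and 109 FPKM after sham surgery. Its groups overlapped, and its locus also holds Jmjd6, Mettl23 and Mfsd11.

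Both SF3 complexes held 1 gene that passed in 1 contrast. Sf3a1, the largest SF3a subunit (chr11:4160350-4182541), had 30.3, 20.2 and 20.5 FPKM after resection with vagotomy, 8.45, 11.3 and 8.02 FPKM after resection, and 16.9, 10.5 and 11.5 FPKM after sham surgery. Vagotomy libraries were above all others, and sham replicate 1 came nearest to them. The difference was 1.26 ± 0.27 against resection (limma adjusted p = 0.0379) and 0.82 ± 0.27 against sham (limma adjusted p = 0.0761). The call against resection held in 8 of 18 alternative settings and without 1 of the 9 single libraries, sham replicate 1, with adjusted p-values up to 0.116. Sf3b5, a small SF3b subunit (chr10:13008450-13009182), had 74.4, 55.0 and 83.5 FPKM after resection with vagotomy, 45.4, 14.9 and 45.6 FPKM after resection, and 35.7, 16.3 and 17.3 FPKM after sham surgery. Replicate 2 was the lowest library of each group. Its difference from sham was 1.65 ± 0.45 (limma adjusted p = 0.0451), a call that held in 10 of 18 alternative settings and was lost without any 1 of the 3 vagotomy libraries, resection replicate 3 or sham replicate 2 or 3. Its difference from resection was 1.12 (limma adjusted p = 0.161).

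Sf3b3, the SF3b130 subunit, had 28.1, 37.8 and 53.0 FPKM after resection with vagotomy, 18.3, 20.3 and 28.0 FPKM after resection, and 16.8, 21.3 and 21.5 FPKM after sham surgery. All vagotomy libraries exceeded all others, by little for replicate 1, and limma gave adjusted p-values of 0.135 against resection, or 0.0487 with the replicate block, and 0.0656 against sham. Its locus holds 7 other genes. Sf3b1, the large scaffold that contacts the branch region, had 33.2, 37.1 and 46.0 FPKM after resection with vagotomy, 30.8, 54.0 and 59.6 FPKM after resection, and 38.7, 61.0 and 62.0 FPKM after sham surgery, with overlapping groups (limma adjusted p = 0.648 against resection). Sf3a2, Sf3a3, Sf3b2 and Sf3b4 did not pass in any contrast.

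**Figure D3:**
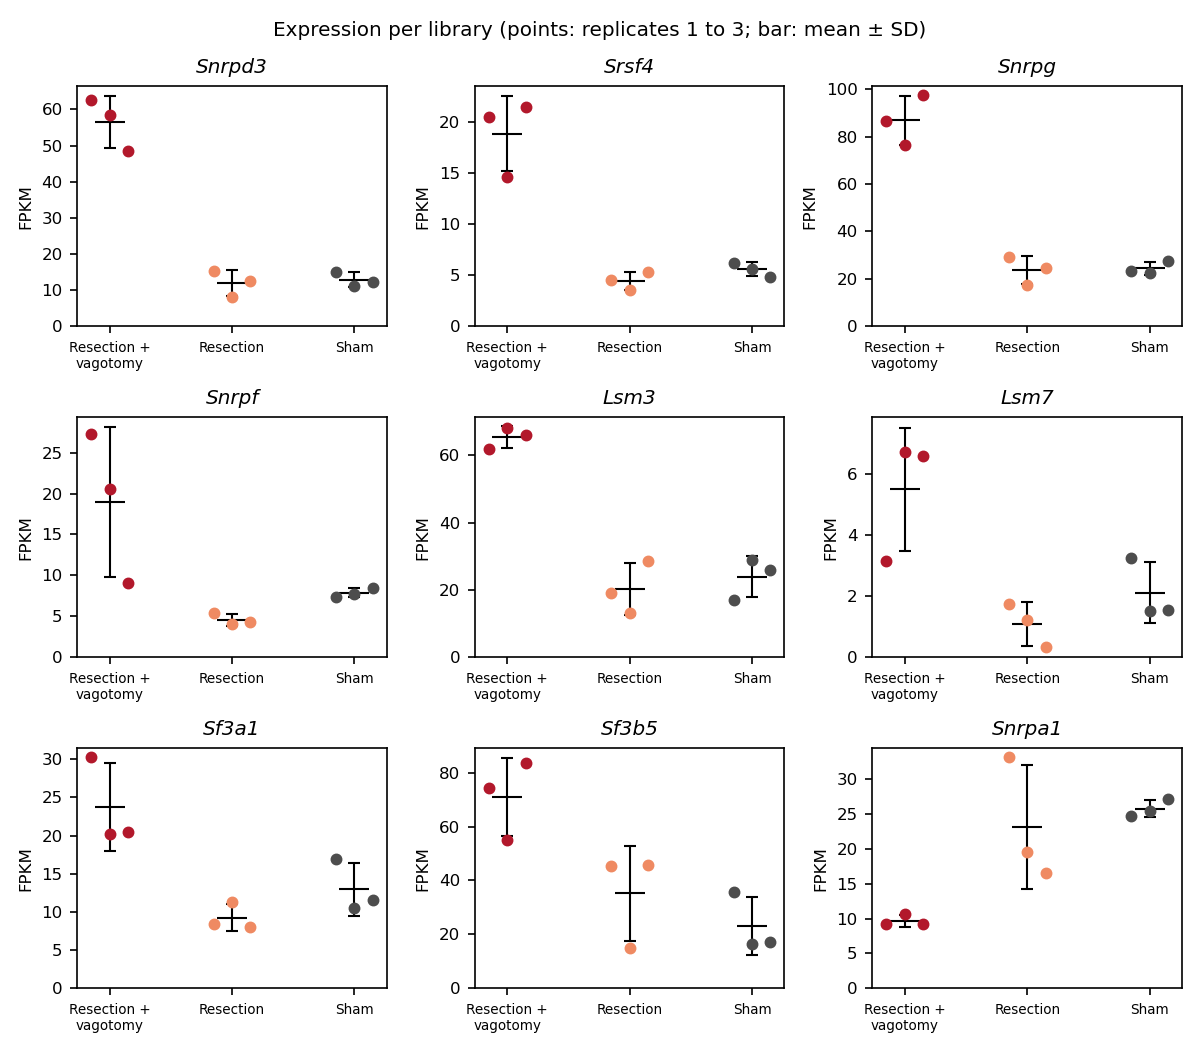
FPKM in each library (points) with mean and SD (n = 3) for the 9 genes that passed the test in at least 1 contrast, with resection with vagotomy at the left, resection in the middle and sham at the right of each panel. In 8 panels the vagotomy mean is the highest, as for Snrpd3 with 48.5 to 62.6 FPKM against 8.01 to 15.2 FPKM after resection, and in the panel of Snrpa1 it is the lowest; in that of Lsm7, vagotomy replicate 1 (3.16 FPKM) lies below sham replicate 1 (3.26 FPKM).

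Of the Sm-like proteins, Lsm2 to Lsm7 belong to the rings on U6 and in decapping. Lsm3 (chr6:91515928-91522625) had 62.0, 68.2 and 66.0 FPKM after resection with vagotomy, 19.0, 13.1 and 28.5 FPKM after resection, and 17.0, 28.8 and 25.9 FPKM after sham surgery. The vagotomy libraries differed little from each other and stood far above the rest. The difference was 1.71 ± 0.31 against resection (limma adjusted p = 0.0255) and 1.45 ± 0.31 against sham (limma adjusted p = 0.0223). Both calls were lost without any 1 of the 3 vagotomy libraries or sham replicate 2 or 3, and the first also without resection replicate 2, with adjusted p-values up to 0.101 and 0.0824.

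Lsm7 (chr10:80852825-80855209), the weakest of the 42 genes (mean of all 9 libraries, 2.9 FPKM), had 3.16, 6.71 and 6.57 FPKM after resection with vagotomy, 1.74, 1.23 and 0.326 FPKM after resection, and 3.26, 1.53 and 1.56 FPKM after sham surgery. Vagotomy libraries were above the resection libraries, while vagotomy replicate 1 was below sham replicate 1. The difference from resection was 1.64 ± 0.37 (limma adjusted p = 0.0439), which held in 7 of 17 alternative settings and, among the single libraries left out, only without resection replicate 1. The authors' deposited table gives it a q-value of 0.0658. Lsm6 had 8.27, 20.9 and 23.8 FPKM after resection with vagotomy, 5.6, 3.97 and 7.86 FPKM after resection, and 6.63, 6.85 and 7.66 FPKM after sham surgery. All vagotomy values lay above the rest, and the difference from resection of 1.37 had a limma adjusted p of 0.0667, or 0.0387 with the replicate block.

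Lsm5 went the other way in its values, with 3.34, 3.97 and 0 FPKM after resection with vagotomy, 8.27, 15.4 and 6.16 FPKM after resection, and 5.23, 9.65 and 17.8 FPKM after sham surgery. Its vagotomy libraries were below all others, and replicate 3 was listed at 0, the only such value among the 42 genes. The differences of -1.88 from resection and -1.95 from sham had limma adjusted p-values of 0.104 and 0.0678, and the pseudogene Gm7846 carries a copy of 97.8% identity over 56.5% of the transcript. Gm7846 itself was listed at 0 in the 3 vagotomy libraries, at 0.471, 6.44 and 1.09 FPKM after resection, and at 0.678, 0.692 and 1.77 FPKM after sham surgery. Lsm2 had 30.7, 19.2 and 2.60 FPKM after resection with vagotomy, 22.7, 17.4 and 11.4 FPKM after resection, and 22, 29.4 and 22 FPKM after sham surgery. Replicate 3 of the vagotomy group stood apart from the other libraries in this gene too, and the groups overlapped. Lsm4 overlapped between groups as well.

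Lsm1 replaces the nuclear subunit in the cytoplasmic decapping ring. It had 2.02, 2.30 and 2.94 FPKM after resection with vagotomy, 4.46, 6.26 and 2.38 FPKM after resection, and 3.21, 4.58 and 6.73 FPKM after sham surgery (limma adjusted p = 0.303 against resection). Lsm11 and Lsm10, parts of the U7 particle that processes histone mRNA, did not pass. Lsm11 averaged 2.73 ± 1.02 FPKM after resection with vagotomy, 4.56 ± 0.563 FPKM after resection and 5.58 ± 1.19 FPKM after sham surgery, and all vagotomy libraries were below all others (limma adjusted p = 0.0752 against sham). Lsm14a, a P-body protein, had 24.9, 50.8 and 74.7 FPKM after resection with vagotomy, 22.8, 32.1 and 22.3 FPKM after resection, and 22.2, 28.9 and 33.9 FPKM after sham surgery. Its groups overlapped (limma adjusted p = 0.212 against resection), although the authors' deposited table calls it higher.

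**Figure D4:**
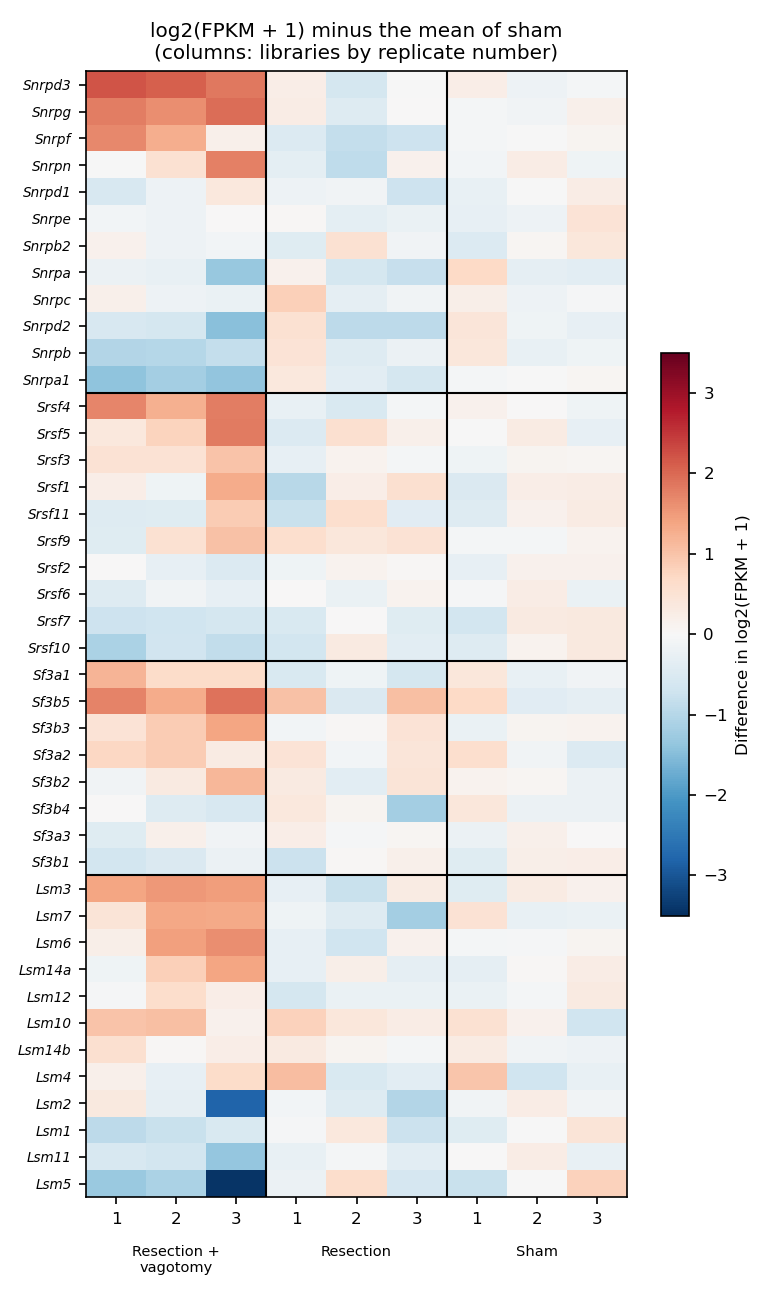
Heat map of the 42 genes (rows, by family) in the 9 libraries (columns, vagotomy left, resection middle, sham right), colored by log2(FPKM + 1) minus the mean of the sham libraries (color bar). The vagotomy columns hold the strongest colors of both signs. Replicate 3 of that group is the highest library for 14 genes and the lowest for 6, counts that were not made over all tested genes.

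Libraries within the vagotomy group did not share each gene's pattern. Vagotomy replicate 3 was the highest of the 9 libraries for 14 of the 42 genes, and vagotomy replicates 1 and 2 for 5 each. Resection replicates 1, 2 and 3 were the highest for 6, 1 and 0 genes, and sham replicates 1, 2 and 3 for 2, 3 and 6. These counts were not made over all tested genes, so they are not read as a trait of the 42 genes. The mean of log2(FPKM + 1) over the 42 genes was 4.64, 4.73 and 4.74 after resection with vagotomy, 4.48, 4.35 and 4.32 after resection, and 4.49, 4.50 and 4.52 after sham surgery. The 80 ribosomal protein genes, another set of abundant housekeeping genes, had means of 6.71, 6.37 and 6.03 after resection with vagotomy, 7.13, 6.31 and 5.87 after resection, and 6.65, 6.22 and 6.60 after sham surgery. By that mean the ribosomal libraries of the 3 groups interleaved, while over all 42 spliceosomal genes the vagotomy libraries were above the rest. There the highest resection library was next to the lowest sham library. Taken by family, the vagotomy libraries were above the rest only for the SF3 genes, and the snRNP, SR and Sm-like families overlapped. Over all tested genes the means were 3.45, 3.54 and 3.56 after resection with vagotomy. They were 3.49, 3.47 and 3.51 after resection and 3.47, 3.49 and 3.48 after sham surgery. Vagotomy replicates 2 and 3 were thus the highest over all tested genes too. On the log2 scale the median SD within a group was 0.31 for the spliceosomal genes and 0.34 for all tested genes after resection with vagotomy, 0.43 and 0.41 after resection, and 0.30 and 0.29 after sham surgery.

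The authors' deposited table of resection with vagotomy against resection calls 12 of the 42 genes higher and 2 lower, where it calls 17.1% of the 14029 genes it tested, 8.55% higher and 8.6% lower. The 12 are Snrpd3, Snrpg, Snrpf, Snrpn, Srsf3, Srsf4, Srsf5, Sf3a1, Sf3b5, Lsm3, Lsm12 and Lsm14a, and the 2 are Snrpa1 and Snrpb. It shares 6 calls with the limma fit, in the same direction, and Lsm7 is the limma call outside it.

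Other proteins of the splicing pathway were read from 10 lists with 134 tested genes. Against resection, 5 of them rose after resection with vagotomy and 1 fell, and against sham 10 rose and 1 fell. These are 4.48% and 8.21% of the listed genes, near or below the 3.52% and 10.1% of all tested genes, while resection against sham gave 0, also at an unadjusted limma p below 0.05. Of the 9 U2AF and SF3b partners 3 rose in both contrasts with vagotomy: U2af1l4, a relative of the 3′ splice site binder U2AF35, Sf1, the branch point binding protein, and Phf5a, an SF3b subunit. Phf5a averaged 84.3 ± 23.6 FPKM after resection with vagotomy, 37.1 ± 4.73 FPKM after resection and 35.8 ± 4.16 FPKM after sham surgery (limma adjusted p = 0.0454 against resection and 0.0252 against sham). Sf1 averaged 102 ± 27.8 FPKM after resection with vagotomy, 39.4 ± 8.6 FPKM after resection and 50 ± 5.27 FPKM after sham surgery. Of 18 other snRNP proteins, Prpf8, the protein at the catalytic center, rose in both, with 95.6 ± 19.6 FPKM after resection with vagotomy, 31.6 ± 5.43 FPKM after resection and 35.9 ± 1.00 FPKM after sham surgery.

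Rbm20, the regulator of titin splicing, was the 1 gene of 11 muscle regulators that rose. It had 136, 106 and 134 FPKM after resection with vagotomy, 45.0, 50.5 and 60.0 FPKM after resection, and 75.1, 55.7 and 52.0 FPKM after sham surgery, with limma adjusted p-values of 0.0345 against resection and 0.0342 against sham. Its locus holds 3 genes. Snrnp48 of the minor spliceosome fell, with 4.24 ± 1.77 FPKM after resection with vagotomy, 11.7 ± 1.17 FPKM after resection and 9.35 ± 2.04 FPKM after sham surgery. Of 26 hnRNP proteins, 9 SR protein kinases and phosphatases and 9 decapping partners, limma called 0 in each contrast. At an unadjusted p below 0.05 it gave 2, 2 and 1 of them against resection, in that order of lists, or 7.69%, 22.2% and 11.1%, where it gave 24.2% of all tested genes. The hnRNP genes had a median change of -0.24 against resection, where the spliceosomal genes had 0.19. Of 16 genes of Sm ring assembly, Gemin5, which recognizes the RNA for the ring, rose against sham with a difference of 1.52 (limma adjusted p = 0.0223). Bcas2, 1 of 16 step helicases and partners of the catalytic core, and Acin1, 1 of 11 further regulators with RS domains, also rose against sham, with differences of 1.71 (limma adjusted p = 0.0225) and 1.46 (limma adjusted p = 0.0353). Against resection these 3 lists held 0 calls, and 4, 4 and 3 genes at an unadjusted limma p below 0.05, shares close to the 24.2% of all tested genes.

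Promoter sequence gives context on what these genes share, shown for 4 of the genes with called changes. Each is shown by a window, the stretch of at most 150 bases nearest to its start that lies in no annotated exon. Other genes with called changes also had such stretches, which are not shown. RefSeq (GRCm38.p6) held a promoter for 35 of the 42 genes, and the 250 bases before each start were searched on both strands. The ETS core CCGGAAG occurred in 37.1% of them, against 7.83% of the promoters of all 27025 genes, the SP1 core GGGCGG in 65.7%, against 35.4%, and the CCAAT box in 37.1%, against 37.5%. TATAAA occurred in 14.3% of both. These are matches of letters and not binding sites, they were not tested, and they say nothing about the changes. The 27025 genes were not limited to expressed ones, while the 35 were, so the shares are not set against like genes. The windows below are given from 5′ to 3′ on the gene's strand, with capitals for the SP1 core or CCAAT box on either strand. They lie at chr4:131873467-131873616 (plus strand) for Srsf4, chr10:93589771-93589908 (minus strand) for Snrpf, chr7:66060149-66060298 (plus strand) for Snrpa1 and chr11:4160294-4160349 (plus strand) for Sf3a1.
Srsf4: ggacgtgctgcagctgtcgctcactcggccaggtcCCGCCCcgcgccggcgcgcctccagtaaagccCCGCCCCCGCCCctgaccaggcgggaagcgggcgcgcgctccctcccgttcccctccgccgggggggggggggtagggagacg
Snrpf: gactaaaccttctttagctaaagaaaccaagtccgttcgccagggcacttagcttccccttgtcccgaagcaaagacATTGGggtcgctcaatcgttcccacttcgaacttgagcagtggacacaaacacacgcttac
Snrpa1: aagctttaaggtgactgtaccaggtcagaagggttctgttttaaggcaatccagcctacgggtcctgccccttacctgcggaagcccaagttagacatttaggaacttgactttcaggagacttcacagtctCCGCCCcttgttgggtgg
Sf3a1: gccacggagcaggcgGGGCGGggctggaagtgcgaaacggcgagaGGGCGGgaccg
SP1 cores stand in the windows of Srsf4 and Sf3a1, which rose against resection, and in that of Snrpa1, which fell against sham, and a CCAAT box stands in that of Snrpf, which rose against resection. The ETS core also occurred in the 250 bases searched for Srsf4 and for Sf3a1, but outside the windows shown.

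Gene structure was also compared by description. The longest coding transcript of the 7 genes that rose against resection had a median of 1129 bases and a range of 743 to 4920, against a median of 2137 and a range of 494 to 6453 for 34 of the other 35, as Snrpn had no coding transcript under its identifier. A Cuffdiff locus was shared with another gene for 11 of the 42 genes, among them Snrpf and Srsf4. Of the 31 genes with a locus of their own, 5 rose against resection, and against sham 4 rose and 1 fell. Exons overlapped those of another annotated gene for 14 of the 42, among them Snrpd3, Snrpf, Srsf4 and Lsm3.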

How the data were processed

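Ventricle RNA of 9 libraries was sequenced, 3 a group. Per the submitters' processing notes, TopHat2 2.0.9, Cufflinks 2.1.1 and Cuffdiff 2.1.1 were used with GRCm38; strand setting and read depth are not given in the sources used here. The deposited matrix holds FPKM with a pseudocount of 1 added, which was subtracted. The deposited Cuffdiff tables cover resection with vagotomy against resection and resection against sham, with group FPKM, p-values and q-values that are used only as the authors' own.

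The fit took the 13249 genes averaging 1 FPKM or more, all 42 members included. Values of log2(FPKM + 1) went into limma 3.58.1 (R 4.3.3), with 1 mean per group over all 9 libraries, a mean-variance trend, two-sided moderated tests and Benjamini-Hochberg adjustment over all tested genes at 0.05. FPKM are not counts, so no count test was run. An exact permutation test of 3 against 3 cannot go below p = 0.1. On simulated data for resection against sham over 13249 genes, the fit recovered 18.2% of 66 genes changed by 1 on the log2 scale, 67.2% of 67 changed by 2 and 94.0% of 67 changed by 3, with 7 false calls. GENCODE M21 (GRCm38) gave exons and transcripts, and BLAST 2.17.0 near copies (at least 90% identity over at least 50% of the length). Tables and figures were made with Python 3.11.15, pandas 2.3.3 and matplotlib 3.10.9.

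The members, lists and named genes were chosen with earlier results of these data known. Named are all members past the threshold, up to 3 of each family with the smallest p in each contrast, the highest and lowest of a family, and a set with known roles; other members are given by range and count. Alternatives were pseudocounts of 0.1 and 5, dropping the filter or raising it to 5 FPKM, quantile and upper-quartile scaling, a fit to the 6 libraries compared, library weights, a replicate block and leaving out each library; leaving out members with a shared locus or a listed near copy was added after seeing the data. Replicate numbers are those of the sample titles. Replicate 3 of the resection and sham groups carries another number in the deposited matrix, and the labels name no pairing or batch. Same-numbered vagotomy and resection libraries deviated together from their group means in all 3 pairs (r = 0.20, 0.14 and 0.12). Libraries with different numbers were not compared in this way, so these r values have no baseline and cannot show a pairing. Values with the replicate block are given for that contrast where a call changes, only as an alternative setting without a known pairing. The other contrasts each had 1 pair below 0.1, but replicate 1 of resection with sham had the largest value of all (r = 0.50).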

Additional observations from a re-analysis of the deposited data

How the results depend on the processing

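Of the 42 spliceosomal genes, 7 were called for resection with vagotomy against resection, 3 to 6 when single libraries were left out, and 1 in a fit to only the 6 libraries compared. Against sham 6 were called, 2 to 7 with single libraries left out and 21 with library weights, whose estimation stopped before it converged. For resection against sham the count was 0 in all alternatives run. Leaving out members with a shared locus or near copy, chosen after seeing the data, gave 5, 5 and 0. Snrpd3 passed in all 18 alternatives in both contrasts with vagotomy, Snrpg in 17 and 18, and Srsf4 in 17 and 16, and all 9 genes with a call kept their direction. Over all tested genes, resection with vagotomy against resection called 466, 29 in the fit to 6 libraries, 887 with weights and 42 to 591 with single libraries left out. Against sham 1334 were called, 6389 with weights and 100 to 1701 with single libraries left out. Resection against sham called 39, 66 with a pseudocount of 0.1, 23 with 5, 13 in the fit to 6 libraries, 417 with weights and 11 to 59 with single libraries left out. The fit to 6 libraries has fewer samples; the cause of the other shifts was not tested. Depth is unknown, so counting error could not be set beside any value.

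Deviations of same-numbered libraries from their group means correlated with r over 0.1 in all 3 pairs of vagotomy with resection libraries. In each contrast with sham this held for 2 of 3 pairs. The limit of 0.1 had no baseline from differently numbered libraries, so the numbers were not shown to pair the samples in any contrast. For replicates 1 to 3, r was 0.19, 0.17 and -0.02 for vagotomy with sham libraries. It was 0.50, 0.20 and 0.01 for resection with sham libraries, so the largest r was not between vagotomy and resection libraries. The labels name no pairing in any contrast. With the replicate block, 10 spliceosomal genes were called against resection and 12 against sham, and 1277, 2413 and 55 of all tested genes for resection with vagotomy against resection, resection with vagotomy against sham and resection against sham. All calls made without the block for the spliceosomal genes were also made with it.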
